A study of Mus musculus with 16 samples.

Results

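Chromatin marked by beta-hydroxybutyrylation of histone H3 at lysine 9 (H3K9bhb) was compared between fasted and fed mice at 10 genes of BDNF signalling and cortical plasticity. The genes were chosen by name (Bdnf, Ntrk2, Arc, Homer1, Nptx2, Rtn4, Rtn4r, Lynx1, Otx2 and Acan) by a rule that uses no measured value, although with earlier results of these data known, and they are 10 of the 21883 protein-coding genes on assembled chromosomes of mm10. A region was assigned to a gene when it overlapped the gene or lay within 10 kb of it, and a gene without a region remained a member. The tissue was occipital cortex, as a cortex homogenate, of C57BL/6J mice at postnatal day 35, either fasted for 48 h or fed ad libitum. By the labels, 16 libraries were made, with 4 from the immunoprecipitate and 4 from input DNA per feeding state. No label names a transgene, and none says whether tissue was pooled.

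The deposited data are 2 lists of regions, 8404 enriched in fasted mice and 1 enriched in ad libitum mice. Each region carries the authors' log-LR, read here as a log likelihood ratio, a score that grows with the evidence for a difference between the feeding states. All log-LR values below are the authors' own and are used to describe and rank regions within the fasted list. Values for single libraries are absent from both lists. The depth is therefore unknown, and neither a level per mouse, a fold change nor a test between mice could be computed. They also hold no region that carried the mark alike in both states. A gene without a region is therefore a gene without a listed difference, not a gene without the mark. Over the fasted list the median log-LR was 4.96, with quartiles of 4.16 and 6.28, and the median width was 205 bp, with quartiles of 154 and 286 bp. A homogenate mixes neurons, glia and vascular cells, so a change in few cells and a change per cell cannot be told apart.

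Brain-derived neurotrophic factor is a secreted protein that binds the receptor tyrosine kinase TrkB, the product of Ntrk2, which signals through the MAP kinase, PI3 kinase and phospholipase C gamma branches. Neuronal activity drives transcription of Bdnf and of the synaptic genes Arc, Homer1 and Nptx2. In visual cortex, which lies in the occipital lobe, the window of juvenile plasticity is closed by brakes that include the myelin protein Nogo (Rtn4) and its receptor (Rtn4r), the nicotinic receptor modulator Lynx1, the homeoprotein Otx2 and the perineuronal net proteoglycan aggrecan (Acan).

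Fasting-enriched regions lay at 4 of the 10 genes, namely the receptor gene Ntrk2, the activity-induced genes Arc and Homer1, and the brake gene Rtn4. The 4 genes held 8 regions, 3 in Ntrk2, 2 in Arc, 1 in Homer1 and 2 in Rtn4. All 8 lay inside the gene they were assigned to, and none of the 8 overlapped another annotated gene. The other 6 genes, the ligand gene Bdnf, Nptx2, Rtn4r, Lynx1, Otx2 and Acan, had no region within 50 kb, as was so for 57.0% of all protein-coding genes. The ad libitum region was near 0 of the 10 members (0.00457% of protein-coding genes). Among all 21883 protein-coding genes, 5093 (23.3%) had a fasted region inside or within 10 kb. Longer genes have more room for a region, and the share rose from 15.2% of genes under 10 kb and 22.5% of those of 10 to 50 kb to 31.5% at 50 to 100 kb and 43.9% at 100 kb and over. By these classes the members with a region were 1 of 2, 0 of 3, 1 of 3 and 2 of 2. When all protein-coding genes were weighted to the length classes of the members, the share was 28.0%, against 40% of the members. No test was made of that difference, and none is drawn.

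At an end of a gene the count was the same 4 of 10. A region overlapped the 1 kb on either side of an end in 11.9% of all protein-coding genes, and in 13.8% at the members' lengths. Regions overlapping the gene itself were found in the same 4 members and in 16.4% of all genes. That share also rose with length, from 7.41% under 10 kb and 15.2% at 10 to 50 kb to 26.0% at 50 to 100 kb and 40.7% at 100 kb and over. The log-LR of the 8 regions ran from 3.91 to 6.75 with a median of 4.96, equal to that of the list to 2 decimals. Their widths ran from 159 to 381 bp with a median of 289.5 bp, and 6 of 8 were wider than the list's median.

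**Figure D1:**
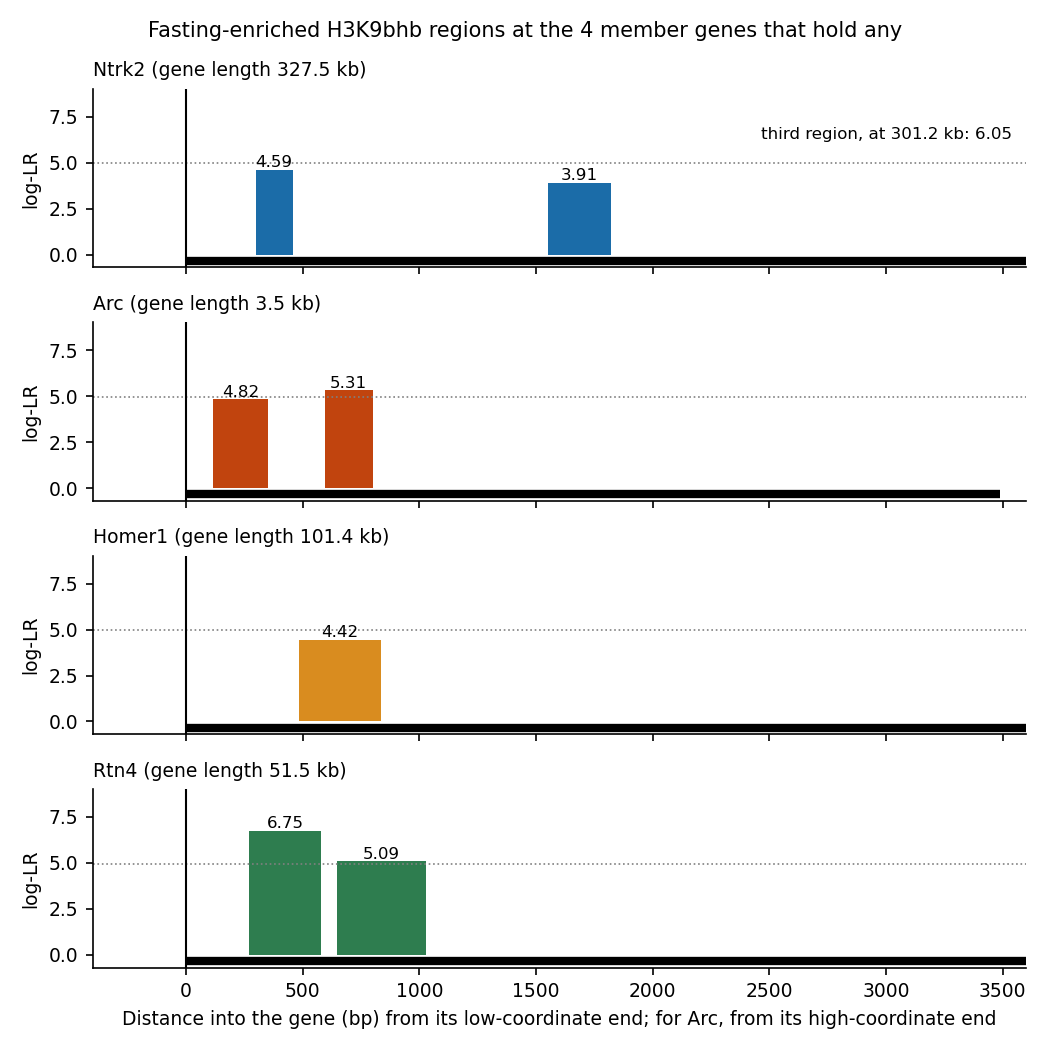
Fasting-enriched regions at Ntrk2, Arc, Homer1 and Rtn4, drawn as bars whose width is the region's width on the distance axis (bp into the gene) and whose height is the authors' log-LR, with the dotted line at the list median of 4.96 and the black strip marking the gene. In each gene the drawn regions, a single 1 in Homer1, lie near 1 end. Ntrk2 has 1 more with its centre at 301.2 kb, outside the axis.

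The ligand gene Bdnf (NCBI Gene 12064, chr2:109674700-109727043, 52344 bp) had 0 regions. The nearest one lay 163.8 kb away, inside Lin7c, with a log-LR of 4.94. Of all protein-coding genes 27.6% were as far or farther from a region. Bdnf is known for a row of alternative first exons, each with its own promoter, and the RefSeq promoter table for GRCm38.p6 holds 7 start windows for it (250 bases before and 50 after an annotated start). Across these 7 windows the number of CG dinucleotides ran from 2 to 13, against a median of 13 over 21262 start windows of protein-coding genes. The search covered the letters TGACG on both strands, the core of the cyclic AMP response element (CRE), which is bound by CREB. It found the core in 1 of the 7, at chr2:109692186-109692485 on the plus strand, and in 23.6% of all start windows. That window is shown to set beside the Homer1 window further on, which holds the same letters but has a fasted region nearby. Capitals mark the core, here on the reverse strand.
Bdnf start window 3: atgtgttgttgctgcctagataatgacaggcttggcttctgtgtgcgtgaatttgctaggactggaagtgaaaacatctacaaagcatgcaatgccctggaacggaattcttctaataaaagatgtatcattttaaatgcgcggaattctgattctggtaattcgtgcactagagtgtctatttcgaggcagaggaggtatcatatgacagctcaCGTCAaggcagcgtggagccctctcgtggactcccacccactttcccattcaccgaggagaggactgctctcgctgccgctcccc

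The receptor gene Ntrk2 (NCBI Gene 18212, chr13:58806472-59133970) spans 327499 bp and held the most regions of the members. The first, chr13:58806770-58806928, was 159 bp wide with a log-LR of 4.59. It began 298 bp inside the low-coordinate end of the gene, and its centre lay 280 bp downstream of the annotated start in the promoter table, which differs from that end. The second, chr13:58808022-58808293, was 272 bp wide, and its centre lay 1588.5 bp downstream of the start. Its log-LR of 3.91 was the lowest of the 8, below the list's first quartile. The third, chr13:59107539-59107886, was 348 bp wide and had the highest log-LR of the gene, 6.05. It lay in the gene body at 92.0% of the span, 26084 bp from the far end. The other 7 member regions had their centres within 1685.5 bp of a gene end. Exons and introns could not be separated with the table used here. Among protein-coding genes of 200 kb and over, 52.0% held a region and 9.91% held 3 or more. The Ntrk2 start window, chr13:58806319-58806618 on the plus strand, is printed because the first region begins 201 bp after the annotated start, beyond the window's last base. Its 23 CG dinucleotides are in capitals, a count higher than that of 71.0% of windows.
Ntrk2 start window: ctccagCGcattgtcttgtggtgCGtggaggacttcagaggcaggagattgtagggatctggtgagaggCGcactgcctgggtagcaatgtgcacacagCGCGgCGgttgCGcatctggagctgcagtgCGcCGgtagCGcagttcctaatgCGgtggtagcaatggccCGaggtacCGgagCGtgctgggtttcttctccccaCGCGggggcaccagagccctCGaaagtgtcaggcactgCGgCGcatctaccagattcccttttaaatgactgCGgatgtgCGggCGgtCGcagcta

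Arc (NCBI Gene 11838, chr15:74669081-74672570), which encodes a capsid-like protein that controls AMPA receptor endocytosis, is the shortest member at 3490 bp and held 2 regions. One, chr15:74671771-74671975, was 205 bp wide with a log-LR of 5.31. The other, chr15:74672218-74672453, was 236 bp wide with a log-LR of 4.82. The gap between them was 242 bp. Their centres lay 697 and 234.5 bp inside the high-coordinate end. In the mouse genome Arc is known to be transcribed toward lower coordinates, which makes that end its start. The promoter table has no entry for Arc. Together the regions covered 441 bp, against 688 bp for Rtn4, 351 bp for Homer1 and 779 bp for Ntrk2. As Arc is much the shortest of these genes, that was 12.6% of its span, against 1.34% for Rtn4, 0.346% for Homer1 and 0.238% for Ntrk2. Among protein-coding genes under 5 kb, 34 of 5034 (0.675%) held 2 or more regions. When regions within 1 kb of each other were merged, however, the 2 Arc regions became 1. Before merging, at least 1 region overlapped 7.41% of protein-coding genes under 10 kb.

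Homer1 (NCBI Gene 26556, chr13:93303757-93405129), which encodes a postsynaptic scaffold that links group I metabotropic glutamate receptors to Shank and inositol trisphosphate receptors, held 1 region. It lay at chr13:93304241-93304591, was 351 bp wide and had a log-LR of 4.42, higher than 33.9% of the list. It began 484 bp downstream of the annotated start, and its centre lay at 659 bp. The table holds 2 start windows for Homer1, and the downstream one had no region within 1 kb. The first, chr13:93303507-93303806 on the plus strand, contained the CRE core 3 times, shown in capitals. The core was found in 23.6% of all start windows, and 1.38% held it 3 or more times.
Homer1 start window 1: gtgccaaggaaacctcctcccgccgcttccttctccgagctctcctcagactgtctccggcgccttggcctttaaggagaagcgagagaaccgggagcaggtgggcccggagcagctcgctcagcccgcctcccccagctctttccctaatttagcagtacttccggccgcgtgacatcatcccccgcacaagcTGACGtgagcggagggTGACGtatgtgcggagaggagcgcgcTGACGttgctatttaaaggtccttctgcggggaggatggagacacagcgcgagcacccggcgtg

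Nptx2 (NCBI Gene 53324, chr5:144545887-144557478), which encodes a secreted pentraxin that clusters AMPA receptors, had 0 regions. The nearest, with a log-LR of 5.43, was 67.5 kb away and outside annotated genes, and 50.6% of protein-coding genes were as far or farther. The promoter table has no entry for Nptx2. Thus 2 of the 3 activity-induced synaptic genes held a region and the third did not, beside 23.3% of all protein-coding genes. In their length classes the shares were 15.2% (Arc), 43.9% (Homer1) and 22.5% (Nptx2). Bdnf, also driven by activity, had 0 regions. The difference was not tested.

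Among the brakes, Rtn4 (NCBI Gene 68585, chr11:29692898-29744414), which encodes the Nogo proteins of myelin and endoplasmic reticulum, held the member region with the highest log-LR. This region, chr11:29693169-29693475, was 307 bp wide with a log-LR of 6.75, higher than 80.4% of the fasted list. It began 271 bp downstream of the first annotated start, with its centre at 424 bp. The second region, chr11:29693545-29693925, followed after a gap of 69 bp. It was 381 bp wide, the widest of the 8, with a log-LR of 5.09. Its centre lay 837 bp downstream of the first annotated start and 39 bp upstream of another annotated start of Rtn4. The RefSeq window of that start, chr11:29693524-29693823 on the plus strand, is the sole member window that a fasted region entered. Of all 21262 start windows 3.19% were overlapped by one. It is printed because 279 of its 300 bases, in capitals, lie inside the fasted region.
Rtn4 start window 2: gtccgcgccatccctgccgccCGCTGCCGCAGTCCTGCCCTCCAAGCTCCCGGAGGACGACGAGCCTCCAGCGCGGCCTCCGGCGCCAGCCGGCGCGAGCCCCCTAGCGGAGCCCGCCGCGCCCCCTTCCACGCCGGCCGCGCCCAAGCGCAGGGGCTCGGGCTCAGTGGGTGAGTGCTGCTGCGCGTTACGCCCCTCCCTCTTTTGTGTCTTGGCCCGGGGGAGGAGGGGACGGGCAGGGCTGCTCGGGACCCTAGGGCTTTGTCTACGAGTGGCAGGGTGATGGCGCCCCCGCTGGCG

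That Rtn4 window held 35 CG dinucleotides, more than 90.9% of windows, and its GC content was 75.3%. The start window upstream of it held 15, and the downstream one, with 1 CG and no region within 1 kb, was the poorest in CG of the 19 member windows.

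The receptor gene Rtn4r (NCBI Gene 65079, chr16:18127642-18152408) had 0 regions, and its nearest one lay 61.2 kb away, inside Dgcr6, with a log-LR of 6.38. Of all protein-coding genes 52.8% were as far or farther from one. The Rtn4r start window, chr16:18127392-18127691 on the plus strand, was the richest in CG of the members, with 47 CG dinucleotides (capitals) and a GC content of 78%. It is printed beside the windows of Ntrk2 and Rtn4 as one without a region that exceeds both in CG.
Rtn4r start window: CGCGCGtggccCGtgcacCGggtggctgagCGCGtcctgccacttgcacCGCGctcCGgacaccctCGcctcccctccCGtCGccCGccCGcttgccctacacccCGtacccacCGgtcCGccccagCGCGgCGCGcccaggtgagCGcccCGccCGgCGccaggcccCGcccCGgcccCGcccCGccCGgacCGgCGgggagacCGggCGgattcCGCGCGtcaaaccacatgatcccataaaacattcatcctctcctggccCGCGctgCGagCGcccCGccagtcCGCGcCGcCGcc

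Lynx1 (NCBI Gene 23936, chr15:74747856-74752979), a GPI-anchored protein gene whose product damps nicotinic receptors, had 0 regions. Lynx1 and Arc lie on the same chromosome, and the region nearest to Lynx1, 75.4 kb away, was the Arc region with a log-LR of 4.82. Of all protein-coding genes 48.1% were as far or farther from one. The promoter table has no entry for Lynx1. Of the 3 brake genes in the myelin and nicotinic pathways, Rtn4 held a region, and Rtn4r and Lynx1 did not. In their length classes 31.5% (Rtn4), 22.5% (Rtn4r) and 15.2% (Lynx1) of protein-coding genes had one inside or within 10 kb. No contrast between the brakes was tested.

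Otx2 (NCBI Gene 18424, chr14:48656781-48667644), a homeobox gene whose protein is taken up by parvalbumin interneurons, was the member farthest from any region. The distance was 398.2 kb, to a region inside Exoc5 with a log-LR of 7.06, and 9.17% of protein-coding genes were as far or farther. Its 4 start windows, some of which overlap, held 6 to 16 CG dinucleotides. Acan (NCBI Gene 11595, chr7:79053226-79115099) had 0 regions as well. The nearest lay 158.2 kb away, inside Abhd2, with a log-LR of 8.57, and 28.5% of protein-coding genes were as far or farther. Its single start window held 31 CG dinucleotides, more than 86.0% of windows.

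**Figure D2:**
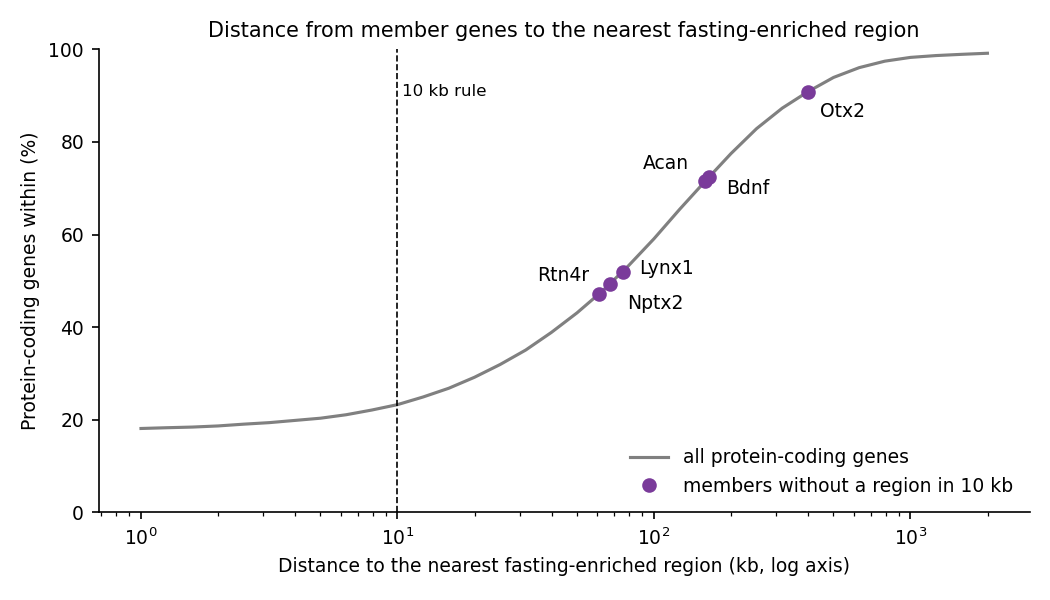
Distance from a gene to its nearest fasting-enriched region (kb, log axis) against the share of protein-coding genes within that distance (%), as a grey curve, with the 6 members without a region as points on it. Rtn4r, Nptx2 and Lynx1 sit near the middle of the curve at 61.2 to 75.4 kb, Acan and Bdnf at 158.2 and 163.8 kb, and Otx2 at 398.2 kb.

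In all, 6 of the 10 members were over 50 kb from a region, near the 57.0% of protein-coding genes that were. None of the 10 had its nearest region between 10 and 50 kb, a range that held 19.7% of protein-coding genes. The median distance was 69.2 kb over all protein-coding genes. No test was made of the members' distances.

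Most member regions lay on the transcribed side of a start. The promoter table gives strand and starts for 7 members, and 5 regions of Ntrk2, Homer1 and Rtn4 lay within 2 kb of one. Relative to the nearest annotated start, 4 of the 5 had their centre downstream, at 280, 424, 659 and 1588.5 bp, and that of the second Rtn4 region was 39 bp upstream. Of the 8221 fasted regions on assembled chromosomes, 2417 had their centre within 2 kb of a protein-coding start. Among these, 2031 (84.0%) were downstream of it, and 1201 (49.7%) were 250 to 1000 bp downstream, against 172 (7.12%) at the same distance upstream. Among 17491 protein-coding genes with known strand, 11.5% had a region within 1 kb of the start and 0.863% within 1 kb of the other end. A downstream position was thus common among listed regions close to a start. The list as a whole lies mostly farther away, and the bin from 1500 to 1750 bp downstream, which holds the second Ntrk2 region, had 29 regions. No test was made of the members' positions.

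**Figure D3:**
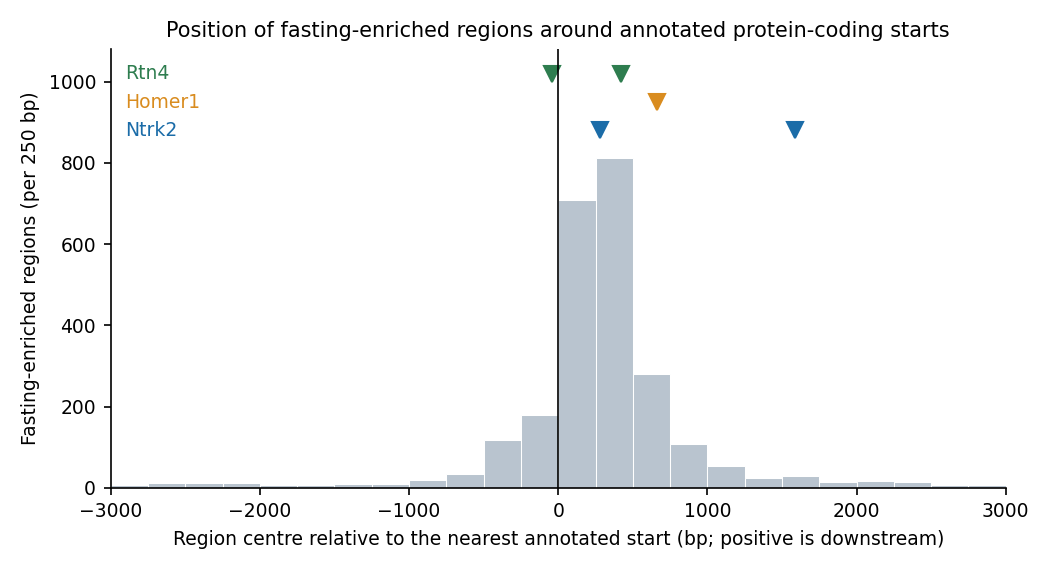
Number of fasting-enriched regions per 250 bp by the position of their centre relative to the nearest annotated protein-coding start (bp, positive is downstream), with triangles at the 5 regions of Ntrk2, Homer1 and Rtn4 within 3 kb. The tallest bar, 813 regions, covers 250 to 500 bp downstream, where the first Ntrk2 region (280 bp) and the first Rtn4 region (424 bp) fall.

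At Arc and Rtn4 the regions came as close pairs, with gaps of 242 and 69 bp, while the first 2 regions of Ntrk2 were 1093 bp apart. In the whole list 15.2% of regions had another within 500 bp. In all, 3 of 10 members held 2 or more regions, against 2.91% of all protein-coding genes, 4.21% of those of 50 to 100 kb, the class of Rtn4, and 13.8% of those of 100 kb and over, the class of Ntrk2. When regions within 1 kb of each other were merged, the pairs at Arc and Rtn4 became 1 region each. Ntrk2 was then the sole member with 2 or more, so the count of 3 rests on counting close pairs as separate regions. The share of all protein-coding genes with 2 or more after merging was not computed.

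CG content moved with the presence of a region over the whole table, and its part in the members' result was not tested. A region lay within 1 kb of the start for 0.679% of windows with 0 to 4 CG dinucleotides, 3.92% with 5 to 9, 13.1% with 10 to 19, 21.3% with 20 to 29, and 31.1% with 30 or more. Over all windows the share was 12.7% (2694 of 21262). Of the 19 member windows, 4 had a region within 1 kb, namely those of Ntrk2 (23), Homer1 (26) and the first 2 of Rtn4 (15 and 35). These 2 Rtn4 windows are close together and had the same regions within 1 kb, so they are not separate cases. No member window with fewer than 15 CG dinucleotides had one. Rtn4r with 47 and Acan with 31 had none, so members with and without a region overlapped in CG count.

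**Figure D4:**
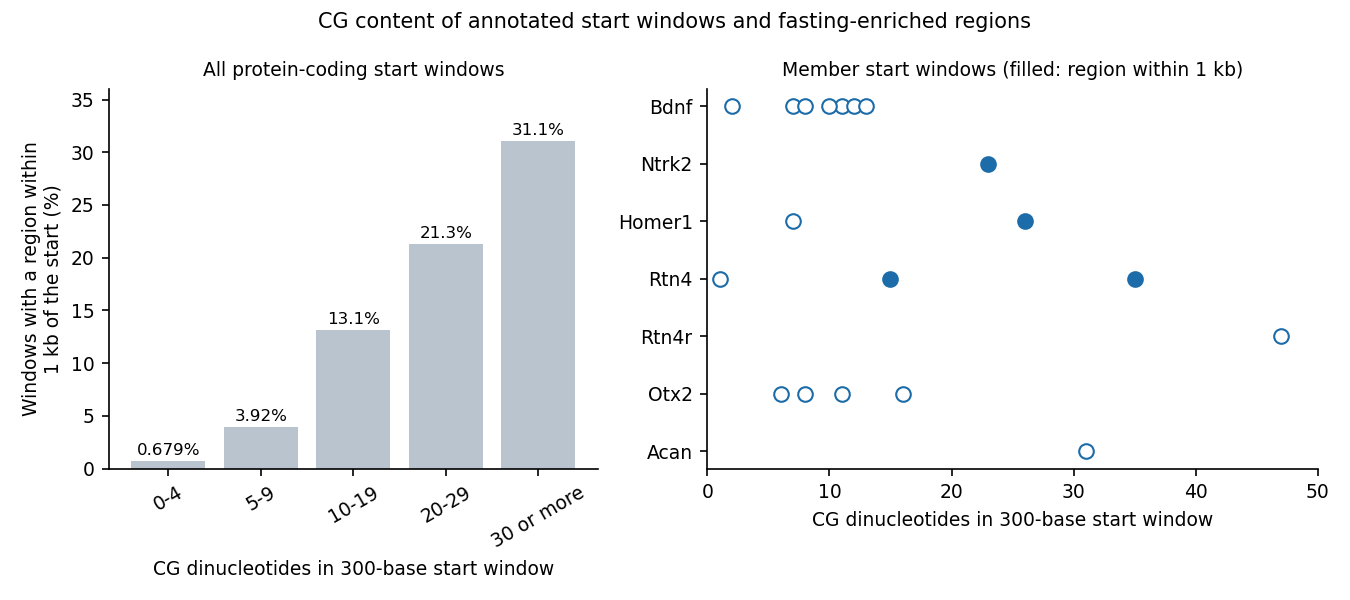
Left, share of all protein-coding start windows with a fasting-enriched region within 1 kb of the start (%) by the number of CG dinucleotides in the window. Right, the CG count of each of the 19 member windows, filled where a region lay within 1 kb of the start; the 4 filled points have 15 to 35 CG, and the open points of Rtn4r and Acan lie at 47 and 31.

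Motif letters were counted over the same 19 windows. These belong to 7 members, with 7 windows of Bdnf and 4 of Otx2, so they are not 19 separate cases. Arc, Nptx2 and Lynx1 have no window. The CRE core TGACG was present in 4 of 19 member windows, of Bdnf, Homer1, Rtn4r and Otx2, near its share of 23.6% over all windows. Of these 4 windows that of Homer1 alone had a region within 1 kb, beside 12.7% of all windows, whether or not they held the core. The whole CRE, TGACGTCA, which contains the core, was in 0 of 19 (2.23% of all windows), and the E-box CACGTG was in 0 of 19 (7.84%). The AP-1 letters TGANTCA were in 2, the first Rtn4 window and 1 Bdnf window (6.99% of all windows), and the GC box GGGCGG was in 7 (46.2%). The TATA box letters TATAAA were in 1, of Otx2 (12.6%). Both strands were searched for each motif. A match is a string of letters, not a bound site, and its absence says only that the letters are not in these 300 bases.

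Other genes of the pathway, in 6 lists of 98 genes in all, held a region inside or within 10 kb in 33 (33.7%), against 23.3% of all protein-coding genes and 28.9% at the lists' length classes. Regions at an end were found in 13 of 98, against 14.1% of protein-coding genes at the same lengths, a share near the background. The lists were made with results of these data known, and no test was run on them. Where a region is said to lie outside a gene, it is still within 10 kb.

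Among other neurotrophins, their receptors and processing enzymes, 1 of 12 held a region, against 27.7% of protein-coding genes at the same lengths. It was Sorcs2, which encodes a sortilin-family receptor for proBDNF, with a log-LR of 3.37, in the body of a gene of 381.0 kb. The ligand genes Ntf3 and Ntf5 and the receptor genes Ntrk3 and Ngfr had none.

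Adaptors and kinases downstream of TrkB held one in 10 of 25, 6 of them at a gene end. At the same lengths 30.4% of protein-coding genes held one and 14.7% had one at an end. Ptpn11, which encodes the phosphatase SHP2, had a log-LR of 7.71 with the centre 266.5 bp from a gene end. Plcg1, the phospholipase C gamma gene, held 2 regions, the higher at 7.44. Map2k1, which encodes the MAP kinase kinase MEK1, had 5.69 with the centre 329 bp from an end. The region counted for Map2k2 (8.74) lay 9734 bp outside that gene. Gab1, Pik3ca, Pik3r1, Sh2b1, Shc3 and Camk4 made up the 10.

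Of the regulators of Bdnf transcription 4 of 12 held a region, against 27.9% of protein-coding genes at the same lengths. Mef2d, which encodes an activity-dependent MADS-box factor, had 3, the highest of which (9.77) lay 2955 bp outside the gene. Usf1 (6.21) and Usf2 (5.26), which encode E-box binding factors, each had 1 at an end. Npas4, an activity-induced factor gene, had 1 of 3.96 that lay 5470.5 bp from the nearer end. Creb1, Crtc1 and Rest had none.

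Partners of Arc, Homer1 and Nptx2 held one in 9 of 18, the highest share of the 6 lists, beside 31.4% of protein-coding genes at the same length classes. They included the CaM kinase II genes Camk2a (9.49) and Camk2b (5.99), the Homer-binding scaffold gene Shank3 (6.37) and Plk2, an activity-induced kinase gene, whose region of 6.65 had its centre 205 bp from an end. Nptxr, which encodes the receptor of the neuronal pentraxins, held a region of 3.94 at an end while Nptx1 and Nptx2 had none. That region also overlapped the annotated gene Npcd.

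Myelin and nicotinic brake genes other than the members held one in 6 of 16, with 0 at an end. At the same lengths the shares were 28.2% and, at an end, 13.6%. The highest log-LR was in Tnfrsf19, which encodes the Nogo co-receptor TROY, at 22.0, followed by the kinase gene Rock2 at 9.05, the nicotinic subunit gene Chrna4 at 6.31 and the Lynx1 relative Ly6h at 5.83. Perineuronal net and inhibitory maturation genes held one in 3 of 15, also with 0 at an end, beside 25.8% and 13.1% at the same lengths. The 3 were Tnr (6.80), which encodes tenascin-R, the proteoglycan receptor gene Ptprs (4.37, a region that also overlapped Gm32822) and Pvalb (3.44). The proteoglycan genes Bcan, Ncan and Vcan, like Acan, had none.

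**Figure D5:**
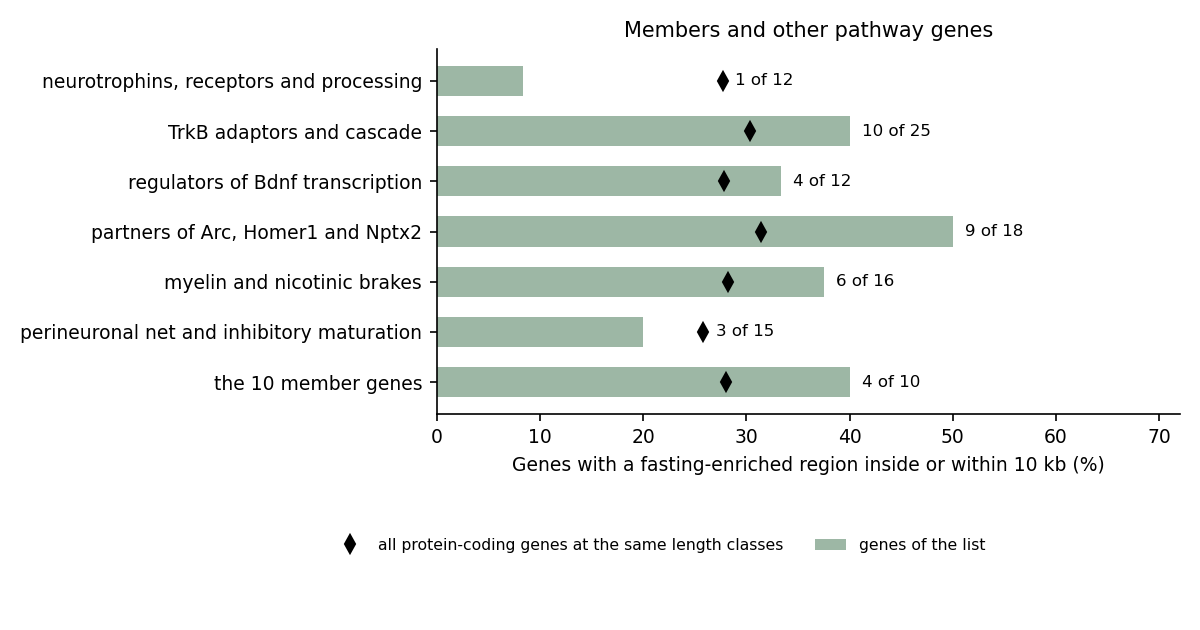
Share of genes with a fasting-enriched region inside or within 10 kb (%) for the 10 members and the 6 lists of other pathway genes, as bars with the counts beside them, and diamonds for all protein-coding genes weighted to the same length classes. The bars run from 8.33% (1 of 12, other neurotrophins and receptors) to 50% (9 of 18, partners of Arc, Homer1 and Nptx2).

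Markers of cortical cell types, which here carry no expression value, held a region in 5 of 25 (20%), near the 23.3% of all protein-coding genes and the 24.0% at the same lengths. Tbr1 (4.01) was the 1 of 5 for cortical excitatory neurons, and the inhibitory neuron list had 0 of 5. Oligodendrocyte markers had 2 of 4, Mbp (6.61) and Cnp (6.52), astrocyte markers 1 of 4 (Aldh1l1, 8.50, outside the gene and overlapping Slc41a3), microglia markers 1 of 4 (Aif1, 5.35, outside the gene and overlapping Prrc2a) and endothelial markers 0 of 3. A list of regions does not give the share of each cell type in the tissue, so the labelled tissue could not be checked this way.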

How the data were processed

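H3K9bhb immunoprecipitates and inputs of occipital cortex were sequenced. The submitters' processing notes list Bowtie2, MACS2 and mm10, but as seen here neither their roles nor any version. Both region lists were deposited by the authors with a log-LR column, per the file headers, which is treated as a score. Its log base, cutoff, depth scaling and any pooling of libraries were not given in the sources used here. Without counts per library the depth is unknown, and no test was made.

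Starts were read as counted from 0 (smallest width 120 bp on that reading) and are printed from 1. Gene spans were those of 49997 RefSeq genes on GRCm38.p6, which is mm10. Start windows, strand and sequence came from a RefSeq promoter table of the same build, which matched 7 of 10 members. Regions were counted inside genes, within 10 kb, and within 1 kb of a gene end. Shares over all 21883 protein-coding genes, also by length class (under 10, 10 to 50, 50 to 100, and 100 kb and over), were computed for comparison with the counts. The counting step was tested on simulated data.

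The members, the 6 pathway lists and the 6 marker lists were chosen with earlier results of these data known. All members are named, as are up to 4 genes of each pathway list with the highest log-LR. Other genes were named after their values were seen, and some list genes are not reported here by name. Stranded positions, CG classes and length weighting were chosen after seeing the data. The cuts of 5 kb and 200 kb on gene length were not among the planned length classes. Other flanks, end windows, log-LR limits, the region centre and merging within 1 kb were tried. Python 3.11.15, numpy 2.4.6, pandas 2.3.3 and matplotlib 3.10.9 were used.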

Additional observations from a re-analysis of the deposited data

How the results depend on the processing

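The 4 members with a region were Ntrk2, Arc, Homer1 and Rtn4 with the gene span alone, with flanks of 1, 5 and 50 kb, with the region's centre in the window and with regions within 1 kb merged. Of all protein-coding genes 16.4% held one with the span alone, 18.1% with a flank of 1 kb and 20.3% with 5 kb. By the region's centre 23.2% did, and after merging 23.3%. At an end the members were the same 4 with windows of 500 bp (9.55% of all protein-coding genes) and 3 kb (14.7%). A flank of 50 kb took in 43% of all protein-coding genes, no further member and 48 of the 98 pathway genes. Of the 98, 31 held a region with the gene span alone, 31 had one with a flank of 1 kb and 32 with 5 kb. Limits on log-LR changed the counts, as fewer regions enter. At or above the list's median 3 members, Ntrk2, Arc and Rtn4, held 4 regions in place of 8. At that limit 12.9% of all protein-coding genes and 22 of the 98 pathway genes had one. Of the members 2 had one at an end, Arc and Rtn4 (6.08% of all protein-coding genes). At a log-LR of at least 8.31, the level of the highest 10% of the list, the members with a region, with one at an end and with one inside the gene, and the number of their regions, were each 0. Of the 98 pathway genes 5 had one, which for Map2k2 and Mef2d lay outside the gene. At that limit 2.03% of all protein-coding genes had one and 0.644% had one at an end. No share at the lists' length classes was computed for it. No paired analysis was possible because neither list gives values for single libraries, and leaving out replicates was not run for the same reason. The depth is unknown, so the smallest difference that could have been listed cannot be given.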
